A study of Mus musculus with 16 samples.

Results

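The MHC class II molecule and the genes that load it were examined in CD11b+ cells of mouse tumours, sorted by how long they had been in the tumour. The 9 genes were chosen by symbol from the 24421 genes of the count tables. They are the chain genes H2-Aa, H2-Ab1 and H2-Eb1, the invariant chain gene Cd74, the H2-DM genes H2-DMa, H2-DMb1 and H2-DMb2, the thiol reductase gene Ifi30 and the transactivator gene Ciita. The 16 RNA-seq libraries came from MC38-Ova tumours, a mouse colon adenocarcinoma line carrying ovalbumin, grown under the skin of transgenic C57BL/6 Kaede mice aged 8 to 14 weeks. Kaede is a fluorescent protein of the host cells that violet light turns from green to red, so Kaede-green cells entered the tumour after it was illuminated and Kaede-red cells had been there since. Both colours were sorted 24h and 72h after photoconversion, with 4 libraries for each colour and time. All libraries were labelled as untreated controls of C57BL/6 genotype, and all carry the same batch label. The sort took live cells positive for CD45, Kaede and CD11b and negative for TER119 and NK1.1. According to the study, replicates were tumours of separate mice. Whether a Kaede-green and a Kaede-red library of the same number came from 1 tumour is not given in the sources used here.

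Class II molecules present peptides from endocytosed and lysosomal protein to CD4+ T cells. An α and a β chain assemble in the endoplasmic reticulum on the invariant chain, which blocks the groove and carries the complex to late endosomes, where proteases degrade it. H2-DM then removes the last invariant chain fragment and favours stable peptides, GILT (Ifi30) reduces disulphide bonds of the antigen, and CIITA switches on the promoters of the whole set. Among myeloid cells of tumours, monocytes carry little class II, and some acquire it as they become macrophages or dendritic cells.

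Each library held between 3216858 and 15423085 counts. The ribosomal RNA precursor Rn45s took 79.0% to 93.4% of the counts of Kaede-green libraries and 55.8% to 84.9% of those of Kaede-red libraries, which left 468092 to 5472477 counts for all other genes. The sorted cells carried macrophage and monocyte markers at summed levels of 450 to 1850 CPM, whereas the summed B cell markers stayed at or under 4.50 CPM and Ms4a1 and Pax5 had no count in the Kaede-green 24h libraries. CPM are here counts of a gene per 1000000 counts of the TMM-scaled library size. Values given for several libraries stand in the order of replicates 1 to 4. In bulk libraries, fewer cells that carry a gene and less of its RNA per cell cannot be told apart.

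Of the members, 6 lie within 197 kb of chromosome 17 in the mm10 build, from 34119541 to 34316674, where H2-DMa, H2-DMb2, H2-DMb1, H2-Ab1, H2-Aa and H2-Eb1 follow each other. Ciita lies at chr16:10480059-10528418 and Ifi30 at chr8:70762774-70766663. H2-DMa shares annotated bases with Brd2, and Ciita with Dexi. The setting of the counter for strand and shared reads is not given in the sources used here, so the counts of these 2 members are less certain than the others. H2-DMb1 and H2-DMb2 are near copies, with 94.4% identity over 1255 aligned transcript bases and identical sequence in 72 of 1255 windows of 150 bases in H2-DMb1. The split of reads between these genes is thus uncertain, and their sum is used in the ratios.

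Promoters of class II genes share an X box, bound by the RFX complex, and a Y box (ATTGG), bound by NF-Y. CIITA docks on the assembled factors. RefSeq promoter windows of 300 bases (GRCm38.p6, the assembly of mm10) were at hand for 6 of the 9 members, and those for H2-Ab1, Cd74 and Ciita were missing. The stretches that hold both boxes are shown for H2-Eb1, H2-DMb1 and H2-DMb2, and that around the Y box for H2-Aa, since chain genes and H2-DM genes are both among them. Capitals mark the X box, where it was found with at most 2 mismatches, and the Y box.
H2-Eb1: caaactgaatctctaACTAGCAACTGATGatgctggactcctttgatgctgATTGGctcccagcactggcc
H2-DMb1: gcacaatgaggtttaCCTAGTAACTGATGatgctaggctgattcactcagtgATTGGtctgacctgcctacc
H2-DMb2: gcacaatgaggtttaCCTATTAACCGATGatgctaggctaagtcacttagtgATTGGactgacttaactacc
H2-Aa: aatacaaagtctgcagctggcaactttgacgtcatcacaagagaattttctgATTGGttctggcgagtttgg

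These stretches lie at chr17:34305757-34305827 (plus strand) for H2-Eb1, chr17:34153078-34153149 (plus) for H2-DMb1, chr17:34145107-34145178 (plus) for H2-DMb2 and chr17:34287852-34287923 (minus) for H2-Aa. The X box of H2-DMb1 had 0 mismatches to the consensus searched, and those of H2-Eb1 and H2-DMb2 had 1 each. An X box with at most 1 mismatch on either strand stood in 0.712% of all 32851 promoter windows, and ATTGG on either strand in 37.4%. In these 3 promoters the Y box began 22 or 23 bases after the X box. The X boxes of H2-DMb1 and H2-Eb1 differed at 2 of 14 bases. In H2-Aa the stretch before the Y box had 6 mismatches at best, so that its X box did not have these letters. Ifi30 held neither ATTGG nor an X box with fewer than 3 mismatches, and 52.8% of windows had one with 3. Neither of the 2 windows listed for H2-DMa held an X box with fewer than 3 mismatches. The one that begins at chr17:34125268 held 1 ATTGG, counted on either strand, and its stretch is not shown. The site searched for interferon regulatory factors (GAAANNGAA on both strands, in 8.56% of windows) was absent from the windows of these 6 members. The gamma-activated site searched (TTCNNNGAA, in 8.30% of windows) stood 1 time in the H2-DMb2 window and in none of the others. A match is a description of the letters and does not show that a factor was bound.

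Cd74, H2-Ab1 and H2-Aa had the highest levels per kilobase of transcript in all 4 groups. In Kaede-red 72h cells Cd74 stood at 330.3 ± 62.8 CPM per kb (SD, n = 4), H2-Ab1 at 232 ± 37.6 and H2-Aa at 139 ± 27.7. Ifi30 (65.4 ± 7.11) and H2-Eb1 (57.3 ± 10.7) followed and overlapped with each other. H2-DMb1 (16.3 ± 1.67), H2-DMa (9.34 ± 0.995), H2-DMb2 (3.80 ± 1.38) and Ciita (1.20 ± 0.434) came last. In this group only the neighbours Cd74 and H2-Ab1, and Ifi30 and H2-Eb1, overlapped between libraries. In the Kaede-green 24h cells all neighbours overlapped except H2-DMa and H2-DMb2, with Cd74 at 101.4 ± 50.7 CPM per kb and Ciita at 0.527 ± 0.354. Cd74, both I-A chains, Ifi30 and H2-Eb1 had higher mean levels than the H2-DM genes in every group, but the libraries of H2-Eb1 and H2-DMb1 overlapped in both Kaede-green groups. Ciita had the lowest mean in every group. H2-DMb2 had 4 to 28 counts and Ciita 2 to 29 counts in a Kaede-green library, so differences of these genes are imprecise.

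**Figure D1:**
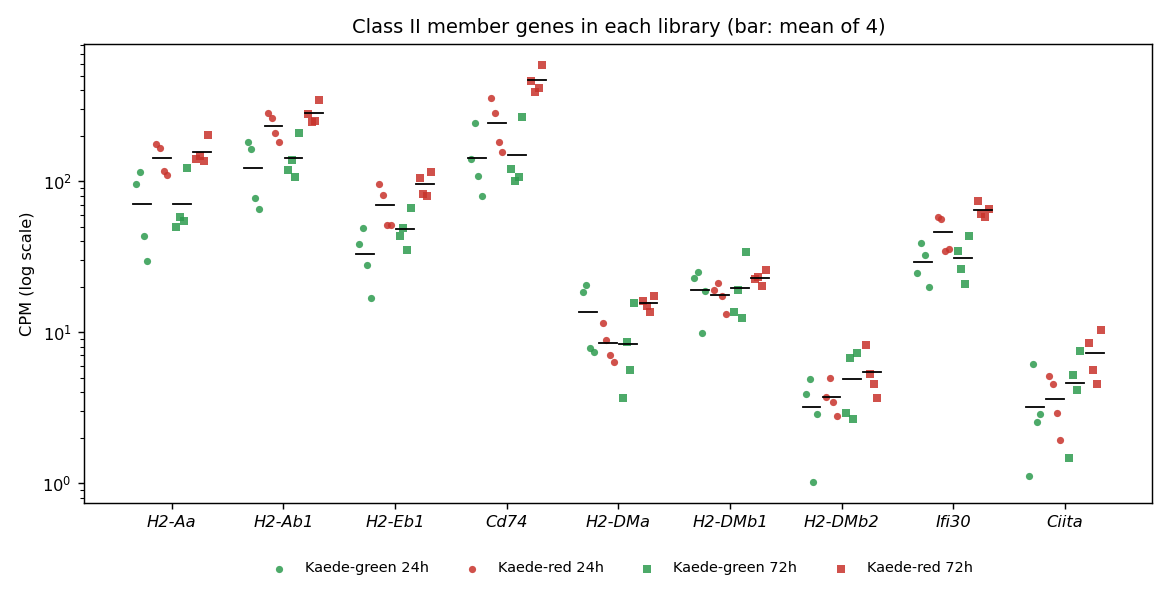
CPM of the 9 members (log axis) in each of the 16 libraries, with circles for 24h, squares for 72h, green and red for Kaede fluorescence, and a bar at the mean of 4 libraries. Red squares of H2-Aa, H2-Ab1, H2-Eb1, Cd74 and Ifi30 all lie above the green squares, while the H2-DM genes and Ciita overlap.

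Kaede-red cells had more RNA of the 3 chain genes, of Cd74 and of Ifi30 than Kaede-green cells, by 1.81-fold to 2.31-fold over both times, and the H2-DM genes and Ciita did not pass the test. The comparison asks how expression differs between cells that had stayed in the tumour since photoconversion and cells that had entered after it. With edgeR's quasi-likelihood test and Benjamini-Hochberg adjustment over 9642 genes, 5 of the 9 members were called, all 5 higher, against 20.3% of all genes called in either direction (969 higher and 990 lower). The median log2 fold change was 0.85 over the members and 0.06 over all genes tested. In no member did all 8 Kaede-red libraries lie above all 8 Kaede-green libraries, as 1.19% of all genes did. Rn45s share moved with the same groups. With that share as a covariate in edgeR, 0 of the 9 members were called and 0 had an unadjusted p under 0.05, the log2 fold changes of the 5 fell to between 0.11 and 0.29, and 51 genes in all were called higher.

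H2-Ab1, the β chain of I-A, had 181, 164, 77.5 and 65.0 CPM in the Kaede-green 24h libraries and 283, 263, 209 and 181 CPM in the Kaede-red 24h libraries. At 72h the values were 120, 137, 107 and 208 CPM in Kaede-green and 279, 247, 252 and 346 CPM in Kaede-red libraries. The groups touched at 24h and were apart at 72h, where Kaede-green replicate 4 came closest to the Kaede-red range. The log2 fold change was 0.96 ± 0.19 (SE) over both times (adjusted p = 0.000276). It was 0.95 ± 0.27 for 24h (adjusted p = 0.0234), and the 72h value was 0.98 ± 0.26 (adjusted p = 0.00889).

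H2-Aa, the α chain that pairs with it, had 95.4, 115, 43.6 and 29.4 CPM in Kaede-green and 175, 166, 117 and 109 CPM in Kaede-red libraries at 24h. At 72h it had 50.1, 58.3, 54.2 and 122 CPM in Kaede-green and 141, 147, 136 and 203 CPM in Kaede-red libraries. The red libraries lay above the green ones at 72h, and at 24h one green library exceeded the lowest red one. H2-Aa differed by 1.07 ± 0.21 on the log2 scale over both times (adjusted p = 0.000375). The 24h value was 1.01 ± 0.30 (adjusted p = 0.0370), and the 72h value was 1.14 ± 0.30 (adjusted p = 0.00770).

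H2-Eb1, the β chain of I-E, was read although C57BL/6 mice lack the I-E α chain, and its pseudogene H2-Ea-ps had at most 2 counts in any library. H2-Eb1 had 38.5, 49.2, 28.0 and 16.8 CPM in Kaede-green and 95.7, 80.5, 51.2 and 51.4 CPM in Kaede-red libraries at 24h. At 72h the values were 43.1, 49.2, 34.8 and 66.1 CPM in Kaede-green and 105, 82.1, 79.3 and 116 CPM in Kaede-red libraries. It was the 1 member whose groups did not overlap at both times taken singly. The log2 fold change was 1.03 ± 0.18 over both times (adjusted p = 7.88e-05). For 24h it was 1.08 ± 0.26 (adjusted p = 0.00767), and the 72h value was 0.99 ± 0.25 (adjusted p = 0.00588).

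At 24h these 3 chains were the only members called, against 3.22% of all genes called higher. H2-Eb1 was the 1 member of 9 with all Kaede-red above all Kaede-green 24h libraries, a pattern that 7.09% of genes showed. The calls of H2-Aa and H2-Ab1 at 24h depended on single libraries. In both colours replicates 1 and 2 lay above replicates 3 and 4 for these genes at 24h, a split that the fit did not include. Without Kaede-green 24h replicate 3 or 4, or without Kaede-red 24h replicate 1 or 2, H2-Aa had log2 fold changes of 0.82, 0.75, 0.90 and 0.93 and adjusted p-values of 0.101 to 0.146. Under the same omissions H2-Ab1 had 0.77, 0.73, 0.85 and 0.89, with adjusted p-values of 0.0688 to 0.114, which left H2-Eb1 as the 1 called member. When only the 8 libraries of 24h were fitted, H2-Aa missed the threshold too (0.98, adjusted p = 0.0509). Without Kaede-green 24h replicate 2, Cd74 (1.16, adjusted p = 0.0218) and Ifi30 (0.83, adjusted p = 0.0484) were called as well, as both were with no filter on low counts (0.87, adjusted p = 0.00532, and 0.75, adjusted p = 0.0357) and Ifi30 with at least 10 counts in every library (0.77, adjusted p = 0.0215).

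Cd74 differed most of the members at 72h. It had 139, 244, 109 and 80.2 CPM in Kaede-green and 357, 283, 181 and 156 CPM in Kaede-red libraries at 24h. At 72h it had 121, 100.4, 107 and 268 CPM in Kaede-green and 465, 392, 416 and 590.4 CPM in Kaede-red libraries. The Kaede-red 72h libraries exceeded all 12 others, and Kaede-green 72h replicate 4 stood above the rest of its group. The log2 fold change was 0.77 ± 0.31 at 24h, which did not pass (adjusted p = 0.130), and 1.64 ± 0.31 at 72h (adjusted p = 0.000300), a 3.12-fold difference. Over both times it was 1.21 ± 0.22 (adjusted p = 0.000110). The growth of this difference with time, 0.87 ± 0.43, did not pass (adjusted p = 0.335).

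Ifi30 had 24.5, 38.9, 32.4 and 20.04 CPM in Kaede-green and 57.8, 56.1, 34.7 and 35.3 CPM in Kaede-red libraries at 24h. At 72h it had 34.4, 26.3, 20.9 and 43.2 CPM in Kaede-green and 73.6, 60.2, 57.8 and 65.2 CPM in Kaede-red libraries. The groups overlapped at 24h through the 2 lower red libraries and were apart at 72h. The log2 fold change was 0.85 ± 0.17 over both times (adjusted p = 0.000253). The 24h value, 0.66 ± 0.24, missed the threshold (adjusted p = 0.0876), and the 72h value of 1.04 ± 0.23 passed it (adjusted p = 0.00152).

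At 72h, 5 of the 9 members were called higher (the 3 chains, Cd74 and Ifi30), against 8.06% of all genes. In the same 5 members every Kaede-red library lay above every Kaede-green library, as in 13.0% of all genes. The median log2 fold change of the members at 72h was 0.98, against 0.03 for all genes tested, and at 24h it was 0.66 against 0.05.

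H2-DMa, the α chain of the peptide editor, was called at neither time, and its value at 72h lay near the threshold. It had 18.4, 20.5, 7.90 and 7.36 CPM in Kaede-green and 11.4, 8.88, 7.08 and 6.33 CPM in Kaede-red libraries at 24h, from 18 to 50 counts in a Kaede-green library. At 72h it had 3.66, 8.55, 5.59 and 15.6 CPM in Kaede-green and 16.01, 14.9, 13.6 and 17.5 CPM in Kaede-red libraries. The log2 fold changes had opposite signs at the 2 times, with -0.64 ± 0.33 for 24h (adjusted p = 0.271) and 0.87 ± 0.32 for 72h (adjusted p = 0.0570). Over both times the value was 0.12 ± 0.23 (adjusted p = 0.768). The shift of the difference with time, 1.51 ± 0.46, had an adjusted p of 0.0923. Kaede-green 72h replicate 4, at 15.6 CPM, lay among the Kaede-red libraries. Without it the 72h difference was 1.39 (adjusted p = 0.00327) and the shift was 2.02 (adjusted p = 0.0239), both past the threshold. Omitting Kaede-green 24h replicate 2 or 4 brought the 72h difference past it too, at 0.86 (adjusted p = 0.0492) and 0.85 (adjusted p = 0.0419). The 72h difference also passed with no filter (1.02, adjusted p = 0.00288), with at least 10 counts in every library (0.88, adjusted p = 0.0370) and with only the 8 libraries of 72h (0.84, adjusted p = 0.0444), and the shift passed with no filter (1.57, adjusted p = 0.0107).

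The β chain genes of H2-DM had smaller differences, none of which passed. H2-DMb1 ranged over 9.94 to 24.99 CPM in Kaede-green and 13.3 to 21.2 CPM in Kaede-red libraries at 24h, and over 12.4 to 34.1 and 20.1 to 25.8 CPM at 72h. The difference of H2-DMb1 on the log2 scale was 0.06 ± 0.19 over both times, with a 95% interval of -0.31 to 0.44 that does not reach the values of the called members. The 24h value was -0.09 ± 0.28 (adjusted p = 0.901), the 72h value 0.21 ± 0.26 (adjusted p = 0.647). H2-DMb2 ranged over 1.02 to 4.92 CPM in Kaede-green and 2.78 to 4.99 CPM in Kaede-red libraries at 24h, and over 2.68 to 7.28 and 3.66 to 8.18 CPM at 72h. For H2-DMb2 the log2 differences were 0.23 ± 0.29 over both times (95% interval -0.33 to 0.79), 0.31 ± 0.44 at 24h and 0.14 ± 0.37 at 72h.

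Ciita, the master regulator of the set, had 1.12, 6.15, 2.55 and 2.86 CPM in Kaede-green and 5.10, 4.50, 2.90 and 1.94 CPM in Kaede-red libraries at 24h. At 72h it had 1.46, 5.19, 4.14 and 7.54 CPM in Kaede-green and 8.46, 5.65, 4.54 and 10.3 CPM in Kaede-red libraries. The groups overlapped at both times. The log2 fold change was 0.40 ± 0.30 over both times (adjusted p = 0.366), and its 95% interval of -0.18 to 0.99 leaves room for a difference as large as that of H2-Ab1. It was 0.16 ± 0.46 at 24h and 0.65 ± 0.38 at 72h (adjusted p = 0.260).

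**Figure D2:**
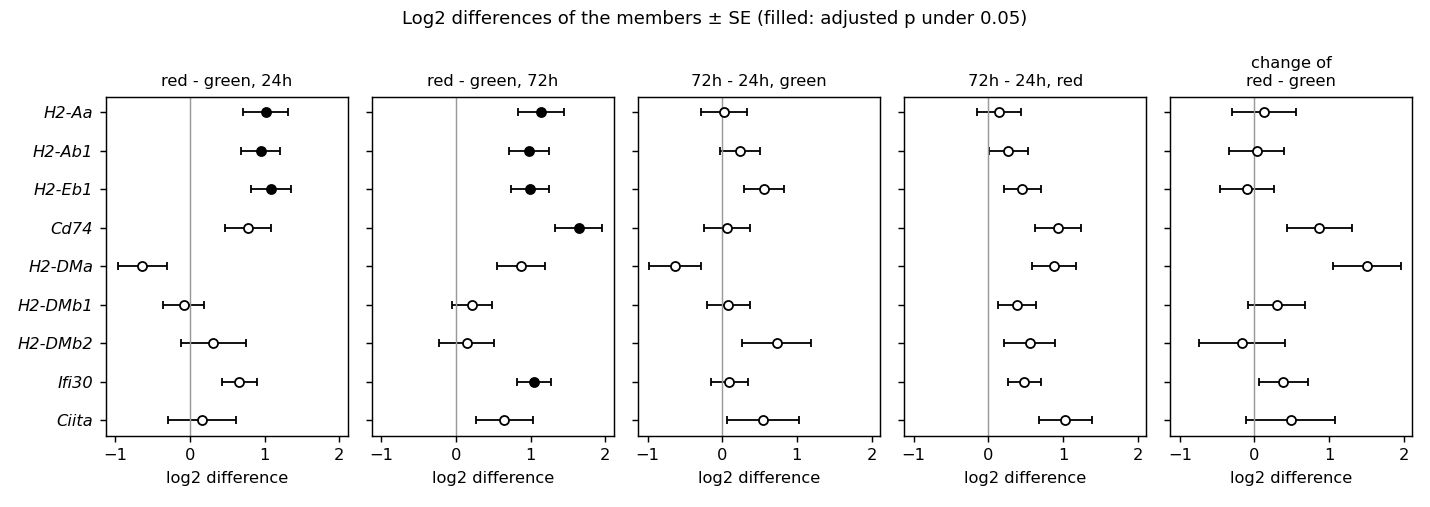
Log2 differences with SE for the 9 members (rows) in 5 comparisons (panels), from the quasi-likelihood fit of 16 libraries. Filled points passed an adjusted p of 0.05: 3 chains at 24h, and 3 chains, Cd74 and Ifi30 at 72h, with no filled point in the panels for time.

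From 24h to 72h, no member was called in either colour. In Kaede-green cells the test called 0.0% of all genes higher (0 genes in either direction with edgeR, 835 at an unadjusted p under 0.05, and 2 higher and 10 lower with DESeq2). Of the members 1, H2-Eb1, had an unadjusted p under 0.05, and DESeq2 called 0. The members' log2 fold changes there were 0.02 ± 0.31 for H2-Aa, 0.24 ± 0.27 for H2-Ab1, 0.55 ± 0.27 for H2-Eb1, 0.06 ± 0.31 for Cd74 and 0.10 ± 0.24 for Ifi30. They were -0.63 ± 0.35 for H2-DMa, 0.08 ± 0.29 for H2-DMb1, 0.73 ± 0.46 for H2-DMb2 and 0.55 ± 0.48 for Ciita. The lowest adjusted p among them was 0.564, that of H2-Eb1.

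In Kaede-red cells, where 4.92% of all genes were called higher at 72h, edgeR called 0 members (4 at an unadjusted p under 0.05, and 0 called with DESeq2), and 3 came close to the threshold. The log2 difference of 72h from 24h was 0.93 ± 0.30 for Cd74 (adjusted p = 0.0513), 0.88 ± 0.30 for H2-DMa (adjusted p = 0.0584) and 1.03 ± 0.35 for Ciita (adjusted p = 0.0645). All Kaede-red 72h libraries lay above all Kaede-red 24h libraries for Cd74 and H2-DMa. The classical chains had 0.15 ± 0.29 for H2-Aa, 0.27 ± 0.26 for H2-Ab1 and 0.46 ± 0.25 for H2-Eb1, and the others had 0.38 ± 0.25 (H2-DMb1), 0.56 ± 0.34 (H2-DMb2) and 0.48 ± 0.22 (Ifi30, adjusted p = 0.185). Without Kaede-red 24h replicate 1 all 3 passed, with 1.18 (adjusted p = 0.0198) for Cd74, 1.08 (0.0338) for H2-DMa and 1.28 (0.0409) for Ciita. Without Kaede-green 72h replicate 4 Cd74 (adjusted p = 0.0246) and H2-DMa (0.0314) passed, without Kaede-green 24h replicate 4 the same 2 (0.0369 and 0.0391), without Kaede-green 24h replicate 2 Cd74 (0.0409) and without Kaede-red 72h replicate 3 Ciita (0.0422). When only the 8 Kaede-red libraries were fitted, Cd74 (adjusted p = 0.0138), H2-DMa (0.00462) and Ciita (0.0192) passed.

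The test of whether the red-green difference changed with time called 0 members higher or lower, against 0.425% of all genes called higher. Beside H2-DMa and Cd74, the changes were 0.12 ± 0.43 for H2-Aa, 0.03 ± 0.37 for H2-Ab1, -0.10 ± 0.36 for H2-Eb1, 0.30 ± 0.38 for H2-DMb1, -0.17 ± 0.57 for H2-DMb2, 0.39 ± 0.33 for Ifi30 and 0.49 ± 0.60 for Ciita. Of the 9, 1 (H2-DMa) had an unadjusted p under 0.05 with edgeR, and DESeq2 called 0.

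The scaling of a library and its count of Rn45s drop out of a ratio of the counts of 2 genes within it, but whether the ratios move with the Rn45s share was not tested. Such ratios, 9 in all, were compared by two-sided exact permutation tests over the 4900 relabellings of colours within time points, with adjustment over the 9. The smallest possible p was 0.000408 over both times and 0.0286 at 1 time. The chain genes lay in narrow proportions to each other. H2-Aa to H2-Ab1 lay between 0.419 and 0.701 in all 16 libraries (log2 difference red minus green 0.16, exact permutation p = 0.0902, adjusted 0.162). H2-Eb1 to H2-Ab1 lay between 0.212 and 0.377 (0.03, exact permutation p = 0.785).

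The ratio of H2-DMa to H2-Ab1 was about 3 times lower in Kaede-red than in Kaede-green cells at 24h. The Kaede-green 24h libraries had 0.102, 0.125, 0.102 and 0.113 H2-DMa reads per H2-Ab1 read, and the Kaede-red 24h libraries 0.0403, 0.0338, 0.0338 and 0.0350. At 72h the values were 0.0306, 0.0622, 0.0525 and 0.0750 in Kaede-green and 0.0573, 0.0600, 0.0541 and 0.0505 in Kaede-red libraries. The colours were far apart at 24h (log2 difference -1.64, exact permutation p = 0.0286, the smallest possible, and 0.0857 adjusted over the 9 ratios, which did not pass) and intermingled at 72h (0.05, p = 0.886). Over both times the log2 difference was -0.79 (exact permutation p = 0.0163, adjusted 0.0490).

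The same ratio had differences of opposite sign between the times in the 2 colours. At 72h against 24h it was -1.06 on the log2 scale in Kaede-green cells and 0.63 in Kaede-red cells, without overlap of libraries in either. Each had an exact permutation p of 0.0286, the smallest possible with 4 against 4, and an adjusted p of 0.103 over the 18 comparisons with time, which were added after the values were seen. Within H2-DM, the summed H2-DMb1 and H2-DMb2 reads per H2-DMa read were 4.50, 3.00, 2.70 and 2.65 in Kaede-green 72h libraries and 1.91, 1.93, 1.81 and 1.68 in Kaede-red 72h libraries, again apart (exact permutation p = 0.0286, adjusted 0.129, which did not pass). At 24h they were 1.46, 1.46, 1.39 and 2.94 in Kaede-green and 1.99, 2.95, 2.95 and 2.53 in Kaede-red libraries, so that over both times the difference was -0.08 (exact permutation p = 0.734).

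Cd74 reads per H2-Ab1 read were 1.66, 1.58, 1.65 and 1.71 in Kaede-red 72h libraries, a narrow range above all 12 other libraries. The Kaede-red 24h libraries had 1.26, 1.08, 0.863 and 0.866, the Kaede-green 24h libraries 0.769, 1.48, 1.40 and 1.23, and the Kaede-green 72h libraries 1.01, 0.731, 1.01 and 1.29. Over both times the log2 difference between the colours was 0.25 and did not pass (exact permutation p = 0.228), and at 72h it was 0.74 and did not pass after adjustment either (exact permutation p = 0.0286, adjusted 0.129). Cd74 made up 40.1% to 42.9% of the summed CPM of the 9 members in Kaede-red 72h libraries and 24.4% to 36.5% in the other libraries. Ifi30 to H2-Ab1 had a log2 difference of -0.16 between the colours, which did not pass (exact permutation p = 0.443).

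**Figure D3:**
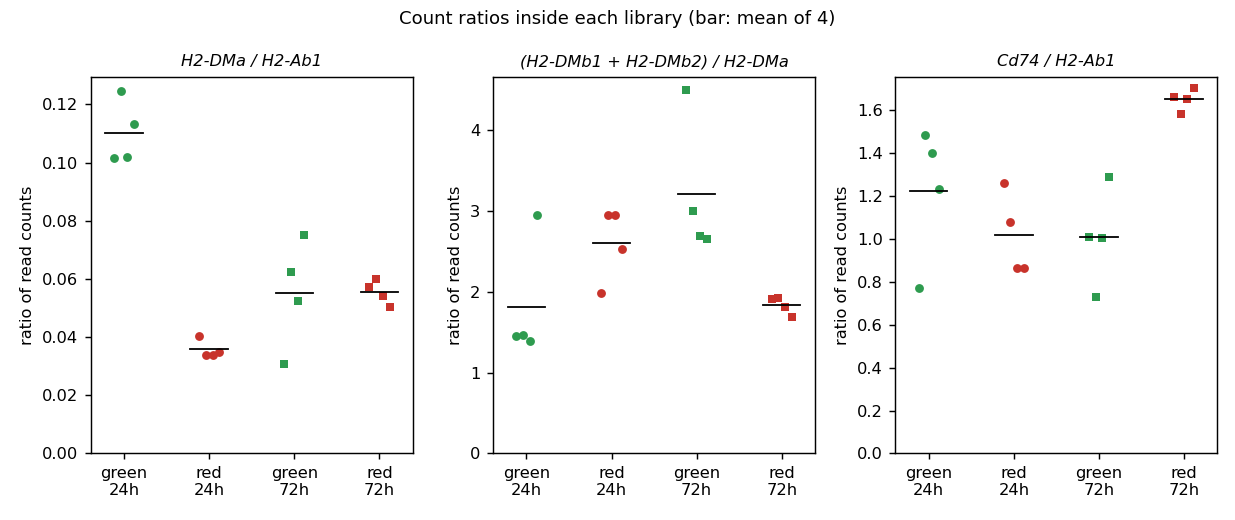
Ratios of read counts within each library in the 4 groups, with a bar at the mean of 4 libraries, for H2-DMa to H2-Ab1, for the summed H2-DMb1 and H2-DMb2 to H2-DMa, and for Cd74 to H2-Ab1. H2-DMa to H2-Ab1 is highest in Kaede-green 24h and lowest in Kaede-red 24h libraries, and Cd74 to H2-Ab1 is highest and least spread in Kaede-red 72h libraries.

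Against Itgam, which encodes the CD11b used in the sort, Cd74 was higher in Kaede-red libraries by 0.85 on the log2 scale (exact permutation p = 0.0122, adjusted 0.0490). Cd74 to Itgam passed at neither time singly, with 0.86 at 24h (exact permutation p = 0.0857, adjusted 0.154) and 0.84 at 72h (p = 0.114, adjusted 0.343). H2-Ab1 to Itgam differed by 0.60 (exact permutation p = 0.0433, adjusted 0.0973). At 24h it was 2.15, 2.16, 1.11 and 0.860 in Kaede-green and 3.21, 3.22, 2.95 and 3.03 in Kaede-red libraries, and at 72h 1.16, 1.61, 1.67 and 3.09 against 1.68, 1.76, 1.77 and 2.38. The colours were apart for this ratio at 24h and overlapped at 72h. Among Kaede-green libraries the ratio was highest, 3.09, where the Rn45s share was lowest (79.0%) and lowest, 0.860, where the share was highest (93.4%). Itgam itself rose in Kaede-red cells from 24h to 72h (0.98 ± 0.19, adjusted p = 0.00183). H2-Ab1 relative to B2m, the light chain of class I, was higher in Kaede-red libraries by 0.48 over both times (exact permutation p = 0.0147, adjusted 0.0490). H2-Ab1 to B2m differed by 0.71 at 24h (exact permutation p = 0.0286, adjusted 0.0857) and by 0.25 at 72h (p = 0.343, adjusted 0.617). Neither time passed singly. The 3 adjusted values of 0.0490 lay at the threshold, and leaving out a library raised them to as much as 0.110.

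The summed CPM of the 9 members were 525, 668, 311 and 243 in Kaede-green 24h, 1008, 888, 623 and 557 in Kaede-red 24h, 389, 411, 348 and 772 in Kaede-green 72h, and 1119, 978, 984 and 1378 in Kaede-red 72h libraries. At the extremes the sums ran against the Rn45s share. Kaede-green 72h replicate 4 had the lowest Rn45s share of the Kaede-green libraries (79.0%) and their highest sum, and Kaede-red 24h replicates 3 and 4 had the highest shares of the Kaede-red libraries (83.1% and 84.9%) and their lowest sums. In both 24h groups the order of the sums was the exact reverse of that of the shares. The shares of replicates 1 to 4 at 24h were 91.0%, 86.5%, 91.6% and 93.4% in Kaede-green libraries. In Kaede-red 24h libraries they were 66.2%, 68.2%, 83.1% and 84.9%. In the 72h groups the order was not fully reversed. The lowest sum stood in replicate 3 of Kaede-green and replicate 2 of Kaede-red libraries, neither of which had the highest share of its group. The part of the Rn45s share in the red-green difference beyond the fit with the covariate was not tested.

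**Figure D4:**
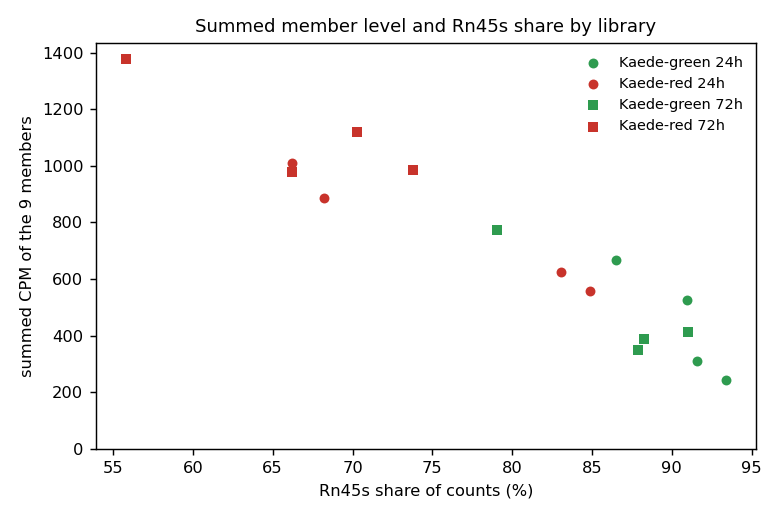
Summed CPM of the 9 members (vertical axis from 0) against the share of counts taken by Rn45s (%), 1 point per library. Sums are lowest where the Rn45s share is highest, in both colours, with Kaede-red 72h replicate 4 at 55.8% and 1378 CPM and Kaede-green 24h replicate 4 at 93.4% and 243 CPM.

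Among themselves the members fell into a tight core and a looser rest. Over the 16 libraries, which share groups and depth, Pearson's r of log2 CPM was 0.918 to 0.976 between the chain genes and 0.903 to 0.919 between Cd74 and the chains. For Ifi30 with these 4 it was 0.834 to 0.944. It was 0.491 to 0.613 between the H2-DM genes and the chains, and 0.510 to 0.630 between Ciita and the chains. After the group means were subtracted, r was 0.906 to 0.965 between the chains and 0.842 to 0.902 between Cd74 and the chains. For Ifi30 with these 4 it was lower, 0.587 to 0.835. It was 0.506 to 0.908 between the H2-DM genes and the chains, with H2-DMa at 0.817 to 0.908, and 0.328 to 0.484 between Ciita and the chains. Within groups Ifi30 and H2-DMa therefore did not follow the split. Libraries of 1 group that were high in the chains thus tended to be high in H2-DM as well. H2-DMb2 and Ciita had the fewest counts of the 9.

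Of the other class II genes, H2-Oa, H2-Ob, H2-Eb2 and H2-Ea-ps had too few counts to test. H2-Ob, the β chain of the H2-DM inhibitor H2-O, had 0 counts in all 4 Kaede-green 24h libraries and 3 to 33 counts in the Kaede-red 72h libraries. H2-Oa had at most 11 counts in any library. Of 7 genes for factors of class II promoters, 1 was called higher (Nfya, 0.79 ± 0.21, adjusted p = 0.00551) and 1 lower (Nfyb, -0.64 ± 0.22, adjusted p = 0.0336) over both times, both subunits of NF-Y.

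Of 8 genes between the interferon γ receptor and Ciita, 1 was called higher over both times, the receptor kinase gene Jak1 (0.51 ± 0.14, adjusted p = 0.00953). At 24h 1 was called lower, Socs1, an inhibitor of the pathway (-1.02 ± 0.32, adjusted p = 0.0460), and at 72h Jak1 was called higher (0.79 ± 0.20, adjusted p = 0.00460). In Kaede-red cells Jak1 (0.78 ± 0.19, adjusted p = 0.00934) and Irf1 (0.62 ± 0.18, adjusted p = 0.0275) rose from 24h to 72h, the comparison in which Ciita missed the threshold.

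Endosomal proteases, which cut the invariant chain and the antigen, were higher in Kaede-red cells in 5 of 7 tested genes over both times and in 4 of 7 at each time, with a median log2 fold change of 0.84 over both times. Lgmn (asparagine endopeptidase) differed by 1.65 ± 0.15 (adjusted p = 1.69e-09), Ctsd by 1.32 ± 0.16 (1.61e-07), Ctsb by 1.25 ± 0.16 (5.54e-07), Ctsz by 0.84 ± 0.15 (0.000103) and Ctsl by 0.82 ± 0.14 (7.80e-05). Ctss, named after its values were seen, cuts the invariant chain in many antigen-presenting cells. It was the most abundant of the list at 473 to 911 CPM, with a difference of 0.34 ± 0.15 that did not pass (adjusted p = 0.105). Ctsl was lower at 72h than at 24h in Kaede-red cells (-0.66 ± 0.20, adjusted p = 0.0318), the direction opposite to the values of Cd74 there.

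Of 2 tested genes for ligases that remove class II from the surface, March1 was called higher over both times (0.44 ± 0.16, adjusted p = 0.0404) and March8 was not (0.59 ± 0.29, adjusted p = 0.162). Of 6 class I genes, H2-K1 (0.92 ± 0.14, adjusted p = 6.98e-06) and B2m (0.55 ± 0.15, adjusted p = 0.00816) were called higher, and Tapbp joined them at 72h (0.65 ± 0.19, adjusted p = 0.0141). Of 4 co-stimulation genes, Icam1 was called higher over both times (0.84 ± 0.18, adjusted p = 0.000874). Cd86 had -0.07 ± 0.14 (adjusted p = 0.771), and Cd40 was called lower at 72h (-0.69 ± 0.22, adjusted p = 0.0300).

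Markers of other cell types differed between the same groups. The summed CPM of 10 dendritic cell markers were 11.5 to 15.6 in Kaede-green 24h, 16.6 to 29.9 in Kaede-red 24h, 15.6 to 22.7 in Kaede-green 72h and 29.3 to 47.5 in Kaede-red 72h libraries. Of 5 tested, 3 were called higher in Kaede-red cells over both times (Itgax, Clec10a and Ccr7). Ccr7 lay near the floor, with a mean log2 CPM of -0.48 and no count in any Kaede-green 24h library. It could thus pass the filter only through the other groups, and its call carries little weight. Cd209a (-0.34 ± 0.53, adjusted p = 0.705) and Batf3 (-0.67 ± 0.46, adjusted p = 0.330) did not pass, with values of the opposite sign. Itgax, which macrophages can carry as well, made up most of the sum. Xcr1 and Siglech had no count in the Kaede-green libraries and at most 4 and 1 counts in the deeper Kaede-red libraries, so no difference was detectable at this depth. Of 7 macrophage markers 6 were called higher and 1 lower over both times, though their sums overlapped. These were 724 to 1850 CPM in Kaede-green and 454 to 844 CPM in Kaede-red libraries at 24h, and 861 to 1261 against 917 to 1180 CPM at 72h. Lyz2 had by far the highest mean log2 CPM of the 7, 9.34 against 6.50 for Itgam, the next. The sums therefore mainly follow Lyz2 and do not stand for the other macrophage markers. Of 5 monocyte markers 3 were called lower over both times. Their sums were 941 to 1557 CPM in Kaede-green 24h and 472 to 581 CPM in Kaede-red 24h libraries. At 72h 1 of the 5 was called lower, the median log2 fold change was 0.17, and the sums overlapped (680 to 1085 against 450 to 702 CPM). The summed B cell markers were 0.0 to 4.50 CPM in Kaede-green and 0.851 to 3.45 CPM in Kaede-red libraries, with no order between the colours. Fibroblast markers separated the colours at both times, with summed levels of 40.3 to 52.8 CPM in Kaede-green and 18.9 to 35.9 CPM in Kaede-red libraries at 24h, and 43.1 to 48.6 against 11.2 to 18.3 CPM at 72h. All 3 fibroblast markers tested were called lower in Kaede-red cells over both times. Summed neutrophil markers were 15.8 to 18.2 CPM in Kaede-red 72h libraries, above the 5.74 to 11.5 CPM of all others. The part of dendritic cells, fibroblasts, neutrophils and of the balance of monocytes and macrophages in the class II difference was not tested.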

How the data were processed

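RNA-seq of sorted CD11b+ cells was available for 16 libraries, 4 for each Kaede colour and time, grouped by the labels. The deposited values are raw read counts per gene. According to the methods, the authors trimmed reads with Trim Galore, checked them with FastQC, aligned them to mm10 with HISAT2 and made the counts with featureCounts. Strand and multimapping settings are not given in the sources used here. Libraries were made with a kit for total RNA. The ribosomal precursor Rn45s took most counts, and the depth for other genes was 468092 to 5472477.

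After filterByExpr had left 9642 genes, edgeR 4.0.16 (R 4.3.3) was used on the counts, with TMM scaling, 1 mean per group, the quasi-likelihood test and Benjamini-Hochberg adjustment over all genes tested. Genes with an adjusted p under 0.05 were called. Ratios of counts used a pseudocount of 0.5 and exact permutation tests. Levels per kilobase used the length of 1 RefSeq-matched transcript per gene. DESeq2 1.42.0, other scalings, filters and covariates and the omission of each library were alternatives. The scripts were tested on simulated data. All 9 members are named in every comparison, and other genes only from lists of the pathway and of cell type markers, where a list of over 4 tested genes is represented by the called ones or the most abundant. The members and lists were chosen with earlier results of these data known. Intervals cover the spread between libraries, and counts of 0 allow up to 3 counts. No 2 libraries were copies of each other, with a chi-square statistic per gene of at least 3.21 for the 24 pairs of replicates. Positions are from GENCODE for GRCm38, and promoter sequences from RefSeq. The position and sequence of Cd74 and the protein sequences are not reported here.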

Additional observations from a re-analysis of the deposited data

Results flagged for a closer look

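In all, 3 member levels stood apart from the other libraries of their group by Dixon's test at its 95% critical value, among 36 groups of 4 that were looked at, where chance gives about 1 in 20. In Kaede-green 72h replicate 4, H2-Aa was at 122.0 CPM, above 50.1, 58.3 and 54.2 CPM in the other 3. In the same library Cd74 was at 267.9 CPM, above 121, 100.4 and 107 CPM. In Kaede-red 72h replicate 4, H2-Aa was at 203.1 CPM, above 141, 147 and 136 CPM. Both libraries had the lowest Rn45s share of their group, 79.0% and 55.8%, and the part of that share in these values was not tested.

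The ratio of H2-DMa to H2-Ab1 reads differed between the times with opposite sign in the 2 colours, with no overlap between the libraries of the 2 times in either colour. Its log2 mean changed by -1.06 from 24h to 72h in Kaede-green cells and by 0.63 in Kaede-red cells. The difference between these changes was not tested for the ratio itself. The edgeR test of the change of the red-green difference for H2-DMa alone gave 1.51 ± 0.46 with an adjusted p of 0.0923.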

How the results depend on the processing

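Over both times the 5 called members passed under every alternative run except the Rn45s share as a covariate, and leaving out each of the 16 libraries in turn kept the count at 5. With library size alone as the scaling, the median of all genes moved to 2.20 on the log2 scale, and 9 members were called over both times and 9 at each time. With the Rn45s share as a covariate, 0 were called over both times and 0 at either time. Without a filter the counts were 5 at 24h, 3 between the times in Kaede-red cells and 1 in the test of colour by time. With at least 10 counts in every library, which removes Ciita and H2-DMb2, 2 members were called from 24h to 72h in Kaede-red cells, and with only the 2 groups compared 3 were, while the same setting left 2 at 24h and 6 at 72h.

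Replicate numbers are shared between groups but not stated to pair libraries. Deviations of same-numbered libraries correlated at 0.049 to 0.153 at 24h and -0.018 to 0.029 at 72h. They were below the level of 0.1 in at least 1 pair at each time. Not every library correlated best with its own number, so the numbers were not taken as pairs. At 24h, however, replicates 1 and 2 correlated positively between the colours, as did replicates 3 and 4 (0.049 to 0.153). All correlations across these sets were negative (-0.132 to -0.027). The main fit does not take these sets into account, and their origin was not tested. With the replicate block, 5 members were called over both times, 5 at 24h, 6 at 72h, 0 from 24h to 72h in Kaede-green cells, 1 in Kaede-red cells and 1 in the test of colour by time, where H2-Ab1 turned to -0.042. The calls gained were Cd74 (adjusted p = 0.00992) and Ifi30 (0.0459) at 24h, H2-DMa at 72h (0.0109) and for colour by time (0.0311), and Cd74 in Kaede-red cells (0.0434). Over all genes the block changed the calls higher from 969 to 897 over both times.

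Leaving out 1 library gave counts of 1 to 5 at 24h, 5 to 6 at 72h, 0 to 3 between the times in Kaede-red cells and 0 to 1 in the test of colour by time, with the libraries named in the results above. For the within-library ratios it gave 0.12 to 0.22 for H2-Aa to H2-Ab1, -0.92 to -0.71 for H2-DMa to H2-Ab1, 0.47 to 0.73 for H2-Ab1 to Itgam, 0.73 to 1.04 for Cd74 to Itgam and 0.39 to 0.57 for H2-Ab1 to B2m, and the calls at an adjusted p of 0.0490 passed in 3, 3 and 4 of 16 fits for H2-DMa to H2-Ab1, Cd74 to Itgam and H2-Ab1 to B2m. Those fits left out Kaede-red 72h replicate 2 or Kaede-green 72h replicate 4 (all 3 ratios), Kaede-green 72h replicate 1 (H2-DMa), Kaede-green 24h replicate 2 (Cd74 and H2-Ab1 to B2m) or 1 (H2-Ab1 to B2m). H2-Ab1 to Itgam also passed (0.73, adjusted p = 0.00551) without Kaede-green 72h replicate 4, and H2-Aa to H2-Ab1 (0.22, adjusted p = 0.0490) without Kaede-green 24h replicate 2, in exact permutation tests. A pseudocount of 1 changed none of the 9 ratio calls. The ratios of H2-Eb1 to H2-Ab1 (-0.037 to 0.091) and of H2-DMb to H2-DMa (-0.13 to 0.045) changed sign.

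Directions turned in the fits that follow, and the cause was not tested. Covariate fits gave -0.66 for H2-DMa, -0.55 for H2-DMb1 and -0.74 for Ciita over both times, -0.22 for Cd74 and -0.87 for Ciita at 24h, and -0.47 for H2-DMb1, -0.057 for H2-DMb2 and -0.62 for Ciita at 72h. From 24h to 72h they gave -0.22 for H2-Aa, -0.093 for H2-DMb1, -0.24 for Cd74 and -0.059 for Ifi30 in Kaede-green cells and -0.33 for H2-Aa and -0.074 for H2-Ab1 in Kaede-red cells. The colour by time values were -0.12 for H2-Aa and -0.15 for H2-Ab1. Library size alone gave 1.67 for H2-DMa and 2.23 for H2-DMb1 at 24h, 0.17 for H2-DMa from 24h to 72h in Kaede-green cells, and -0.33 for H2-Aa, -0.40 for H2-Ab1, -0.16 for H2-DMb1 and -0.096 for Ifi30 for the change of the difference. H2-DMb1 at 24h was 0.0040 without a filter and 0.029 with 10 counts in every library, where H2-Ab1 was -0.086 for the change of the difference. H2-Aa from 24h to 72h in Kaede-green cells was -0.0061 with DESeq2 and -0.0020 without Rn45s.

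Omitting 1 library spread H2-DMa over -0.0056 to 0.38 and H2-DMb1 over -0.074 to 0.28 for both times, H2-DMb1 over -0.34 to 0.083, H2-DMb2 over -0.089 to 0.66 and Ciita over -0.071 to 0.65 at 24h, and H2-DMb2 over -0.13 to 0.43 at 72h. From 24h to 72h in Kaede-green cells it spread H2-Aa over -0.37 to 0.36, H2-Ab1 over -0.00081 to 0.47, H2-DMb1 over -0.32 to 0.24, Cd74 over -0.38 to 0.44 and Ifi30 over -0.11 to 0.25, and in Kaede-red cells H2-Aa over -0.0047 to 0.27. The change of the difference spread over -0.23 to 0.53 for H2-Aa, -0.22 to 0.27 for H2-Ab1, -0.37 to 0.11 for H2-Eb1, -0.53 to 0.21 for H2-DMb2 and -0.0052 to 0.84 for Ciita. Depth limits Ciita and H2-DMb2 most, with 2 to 29 and 4 to 28 counts in a Kaede-green library.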

Other observations

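The genes whose levels were most like those of the members were ranked by Pearson's r between log2 CPM and the mean standardised level of the 9 members over the 16 libraries, among 1385 genes with a mean log2 CPM of at least 4. The libraries share groups and depth, so r is a description. Tlr13, an endosomal sensor of bacterial ribosomal RNA, came first (r = 0.913, and 0.918 after group means were subtracted). Unc93b1, which carries nucleic acid sensing receptors to endosomes, was sixth (r = 0.879) and Hexa, a lysosomal hexosaminidase subunit, seventh (r = 0.868). The others of the first 10 were Gm21975 (0.905), Rbms1 (0.886), Uba1 (0.884), 4632428N05Rik (0.880), Map3k1 (0.866), Il4ra (0.864) and Ucp2 (0.863). Kaede-red cells had more Tlr13 (log2 fold change 0.72 ± 0.14, adjusted p = 0.000251 with edgeR over both times) and more Unc93b1 (0.85 ± 0.15, adjusted p = 8.94e-05) than Kaede-green cells.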
